A study of Mus musculus with 12 samples.

Results

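The effect of losing Ciz1 was described in the cerebellum of male mice, by setting 3 arrays of males lacking Ciz1 (KO_male) against 3 arrays of wild-type males (WT_male). These 6 arrays were chosen by the genotype and sex in their labels, out of 12 arrays in the series. The other 6 arrays, from 3 wild-type and 3 knockout females (WT_female and KO_female), entered only to share the estimate of spread and for comparison. RNA came from cerebellum, 1 array for each adult animal, and 22180 genes were measured. The animals were 10 months old by the extraction protocol and 6 to 10 months old by the series design. The control males are called wild type in their source names and Ciz1+/+ in the protocol, while their genotype field reads Ciz1+/-. The deficiency is germline by the series title. The labels give neither the strain, nor how the allele was made, nor whether littermates were used.

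Ciz1 encodes a nuclear matrix protein that works with cyclin and CDK2 at the start of DNA replication. It also anchors Xist, the noncoding RNA that coats the inactive X chromosome of female cells. A male cell has a single, active X chromosome and does not keep Xist RNA on it, so in male tissue Ciz1 loss can be described apart from that Xist-bound state. The adult cerebellum consists mostly of neurons that no longer divide, with granule cells the most numerous, Purkinje cells as the output, and Bergmann glia, oligodendrocytes, microglia and vessels among them.

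The arrays matched their labels for tissue and, apart from Xist in 1 array, for sex. Granule cell genes (Gabra6 at 11.71 to 12.12, Cbln3 at 12.14 to 12.35) and Purkinje cell genes (Calb1 at 12.25 to 12.45, Car8 at 12.14 to 12.28) were bright in all 6 male arrays on the log2 scale. As a reference for dim signal, 95% of 1394 olfactory and vomeronasal receptor genes averaged below 6.47. Of 21 brainstem neuron genes, 1 was brighter than that level. Xist was 8.71 in WT_male replicate 3, against 5.75 to 6.67 in the other 5 male arrays and 11.88 to 12.28 in the females. Its Y-linked genes were near male levels: Kdm5d was 8.56, against 8.75 to 8.92 in the other males and 3.95 to 4.77 in the females. The mean of 7 Y-linked genes was 6.69 in it, against 6.81 to 6.88 in the other males and 4.93 to 5.12 in the females. This array was the lowest of the 6 male arrays in 4 of the 7 (57.1%, against 16.4% of all genes). Results are therefore also given without it, and the part of that array's Xist signal in any result was not tested. On the first principal component of the 6 male arrays, with 23% of the variance, KO_male replicate 3 lay at -20.22 and the other 5 arrays between -2.05 and 8.78. On that component the WT_male arrays (3.81 to 8.78) lay above the KO_male arrays, of which the highest was at 3.49, while on components 2 and 3 the genotypes overlapped.

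Few genes differed between the genotypes in males. At a limma adjusted p under 0.05, 5 of 22180 genes passed (0.0225%), with 2 higher (1110008P14Rik and Nnt) and 3 lower (Ciz1, Rhoj and Apold1) in KO_male. The median difference over all genes was -0.0045 on the log2 scale, and 91.2% of genes differed by less than 0.2. Past 1.5-fold were 40 genes (0.18%), and among genes brighter than the receptor level 10 were higher (0.0762%) and 9 lower (0.0686%). An unadjusted p under 0.05 was reached by 1201 genes (5.41%), 581 higher (2.62%) and 620 lower (2.8%). The difference was above 0 for 48.1% of genes and below 0 for 51.9%. The 3 arrays of one genotype all lay beyond the 3 of the other for 2284 genes (10.3%). In simulated males the same test recovered 20% of genes changed by 0.3, 58% by 0.5, 94% by 0.8 and 100% by 1.2. There 50 genes were changed at each size, far more than the 5 called here. Many changed genes make the adjusted threshold easier to pass, so recovery in these data can be lower. A change under 0.5 could often be missed with 3 arrays a group, and larger ones as well.

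**Figure D1:**
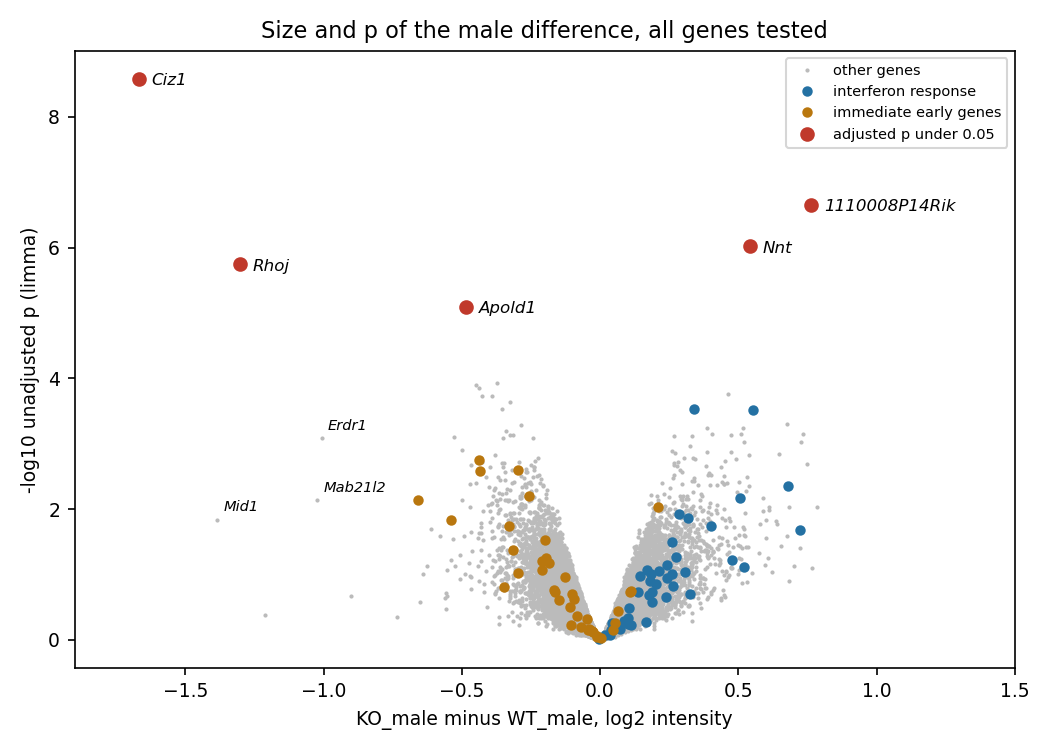
Difference KO_male minus WT_male on the log2 scale (x axis) against -log10 of the unadjusted limma p (y axis) for 22180 genes, with the 5 genes past an adjusted p of 0.05 in red, interferon response genes in blue and immediate early genes in orange. Ciz1 at -1.67 stands farthest to the left, and 41 of 42 blue points lie right of 0 while 33 of 40 orange points lie left of it.

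Ciz1 fell in every knockout male. Its log2 intensity was 8.73, 8.72 and 8.72 in the WT_male arrays and 7.26, 6.82 and 7.10 in the KO_male arrays. The groups were far apart, and the spread was wider in the knockouts (SD 0.225, n = 3) than in the controls (SD 0.004, n = 3). The difference was -1.67 (SE 0.10; 95% interval -1.89 to -1.44; limma adjusted p = 5.81e-05), or 3.18-fold lower. In females the difference was -1.61, and the test of the male effect against the female effect gave -0.06 (limma adjusted p = 0.999). The signal left in the knockouts, 7.06 on average, was above the receptor level of 6.47, and where the probes lie relative to the change in the gene is not known from the labels. Ciz1 passed with each male array left out in turn, at -1.77 to -1.55.

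The gene 1110008P14Rik, a Riken cDNA that is the next gene to Ciz1 on chromosome 2, rose. It read 9.08, 8.95 and 9.11 in WT_male and 9.76, 9.86 and 9.82 in KO_male. Every knockout male was above every control male, and the smallest knockout value exceeded the largest control value by more than the range within either group. The difference was 0.76 (SE 0.07; limma adjusted p = 0.00249), or 1.7-fold. Females differed by 0.87, and the male effect less the female effect was -0.11 (adjusted p = 0.999). The call held without any 1 of the 12 arrays and was lost only when the 6 male arrays were fitted alone (adjusted p = 0.0526).

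Nnt encodes the nicotinamide nucleotide transhydrogenase of the inner mitochondrial membrane, which uses the proton gradient to make NADPH, and it rose in males. It read 7.42, 7.53 and 7.48 in WT_male and 8.04, 8.07 and 7.96 in KO_male. The 3 KO_male arrays were the 3 highest of all 12. The difference was 0.54 (SE 0.06; limma adjusted p = 0.0071), or 1.46-fold. In females Nnt read 7.34, 7.40 and 7.41 in the knockouts against 7.48, 7.53 and 7.58 in the controls, a difference of -0.15 that did not pass. The male effect less the female effect was 0.69 (SE 0.08; limma adjusted p = 0.0625), short of the threshold. The male call of Nnt ended without KO_male replicate 2 (limma adjusted p = 0.0645), WT_male replicate 1 (0.0712) or WT_male replicate 3 (0.0607), at differences of 0.52, 0.52 and 0.54. Some C57BL/6 substrains carry a deletion in Nnt, and the strain of these mice is not in the labels. The other 4 measured genes of a list of substrain variants differed by -0.16 to 0.08 in males, and the part of strain in the Nnt result was not tested.

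Rhoj, a small GTPase of endothelial cells that acts in vessel growth, had the largest fall in males after Ciz1 among the genes called. It read 8.32, 8.32 and 8.45 in WT_male and 7.20, 6.95 and 7.03 in KO_male. No other array of the 12 came below 7.80, so the 3 KO_male arrays stood alone. The difference was -1.30 (SE 0.15; limma adjusted p = 0.00999), or 2.46-fold lower. In females Rhoj read 7.80, 8.42 and 8.47 in the controls and 8.34, 8.37 and 8.18 in the knockouts, a difference of 0.07. The male effect less the female effect was -1.37 (limma adjusted p = 0.243). Without WT_female replicate 1, the lowest of the female arrays, it was -1.15 (adjusted p = 0.0361) and passed. The male call was lost without KO_male replicate 2 or 3 or any 1 of the WT_male arrays, at differences of -1.32 to -1.24 and adjusted p from 0.0716 to 0.0936.

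Apold1, an early response gene of vascular endothelium, was lower in KO_male by the smallest margin of the 5. It read 7.45, 7.49 and 7.46 in WT_male and 7.04, 7.05 and 6.86 in KO_male. The WT_male arrays stood above all 9 others, since both female groups lay between 6.97 and 7.15. The difference was -0.48 (SE 0.06; limma adjusted p = 0.0359), or 1.4-fold lower, against -0.11 in females. The male effect less the female effect was -0.38 (limma adjusted p = 0.908). The call was lost when any 1 of the 12 arrays was left out, with adjusted p from 0.0645 to 0.239 and differences of -0.52 to -0.42. Without WT_male replicate 3, the array with the higher Xist, 2 genes passed in males, Ciz1 at -1.67 and 1110008P14Rik at 0.80.

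**Figure D2:**
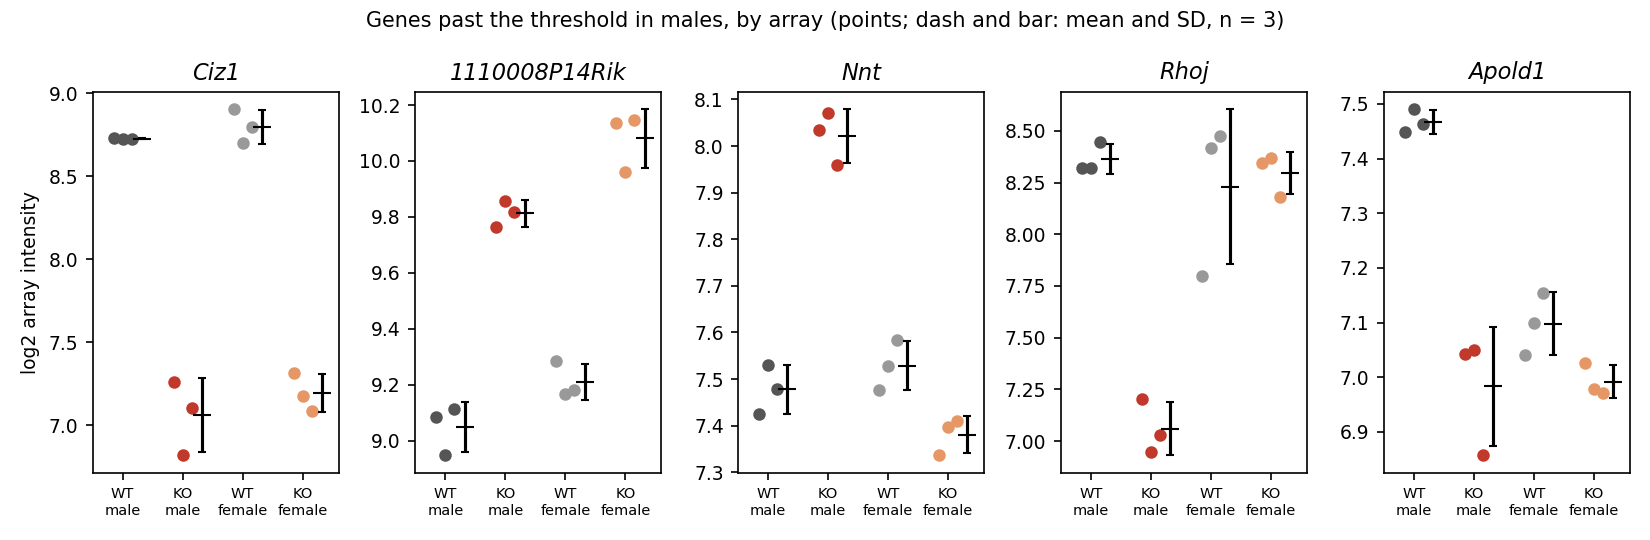
Log2 intensity (y axis) of the 5 genes past the threshold in males, 1 panel each, with a point for each array in the 4 groups of genotype and sex and the mean with its SD (n = 3). Ciz1 and 1110008P14Rik separate the genotypes in both sexes, Nnt and Rhoj have the KO_male arrays apart from the other 9, and Apold1 has the WT_male arrays apart.

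Apold1 was 1 of 336 genes (1.51%) in which the 3 WT_male arrays lay above or below all 9 other arrays. KO_male stood apart in this way in 160 genes (0.721%), WT_female in 195 (0.879%) and KO_female in 649 (2.93%). Zbtb16 was among the 336. This transcription factor that glucocorticoids induce, read 7.65, 7.61 and 7.62 in WT_male and 8.26, 8.24 and 8.21 in KO_male, with 8.07 to 9.19 in the females. The groups of males did not overlap. The difference was 0.61 (SE 0.20, from a spread shared with KO_female arrays at 8.07, 8.49 and 9.19) and did not pass (limma adjusted p = 0.875).

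The next genes by p did not pass, with limma adjusted p from 0.57 to 0.775, and their values are given as measured differences. Of the 10 higher ones Mpp4, a synaptic scaffold protein of photoreceptors, was 7.90, 7.96 and 7.79 in WT_male and 8.17, 8.21 and 8.27 in KO_male (0.33, and 0.31 in females). Grb10, an imprinted adaptor that restrains insulin receptor signalling, differed by 0.28 in males and read 7.89, 7.96 and 7.87 against 8.28, 8.24 and 8.03. In Actb, the cytoplasmic actin gene, the controls read 10.12, 10.15 and 10.15 and the knockouts 10.34, 10.58 and 10.30. For these 3 genes the knockout males lay above the control males without overlap. The others were Slco2a1, a prostaglandin transporter (0.27), Mpeg1, a pore-forming protein of macrophages and microglia (0.46), Nrm of the inner nuclear membrane (0.23), Echdc2 (0.30), Cdk5rap1 (0.26), Fam72a (0.27) and Zfp458 (0.27). In Actb, Fam72a and Nrm the WT_male arrays lay below all other arrays, those of females included, and Actb differed by -0.08 in females.

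Among the 10 lower genes, Them4, a thioesterase that binds the kinase Akt, read 8.33, 8.44 and 8.49 in WT_male and 8.09, 8.20 and 8.12 in KO_male (-0.29). Gabra5, a GABA-A receptor subunit, was 6.94, 6.78 and 6.84 in the controls and 6.48, 6.65 and 6.45 in the knockouts (-0.32, and -0.23 in females). Swap70, which activates Rac, differed by -0.34. Vim, the intermediate filament protein of glia and vessels, was very even within the controls, at 11.39, 11.39 and 11.40, and read 11.21, 11.19 and 11.10 in the knockouts (-0.23). Mdm2, which holds p53 down, read 8.40, 8.42 and 8.36 against 8.17, 8.19 and 8.11 (-0.24). Adamts1, a secreted protease (-0.47), Ccn1, a matrix-associated signalling protein (-0.44), Spats2 (-0.23) and Cyp4f17 (-0.24) completed the group with Erdr1. In Vim, Them4, Gabra5, Adamts1, Spats2 and Cyp4f17 the WT_male arrays lay above all other arrays, those of females included. Vim differed by -0.03 in females. Outside the rule of rank, and named after its values were seen, Hrk, which encodes a death-promoting Bcl2-family protein, read 6.26, 6.41 and 6.34 in WT_male and 5.93, 6.07 and 6.03 in KO_male. Its difference of -0.33 did not pass (limma adjusted p = 0.422), and that of females was -0.41. Hrk averaged 6.05 over all arrays, below the receptor level.

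Erdr1 and Mid1 lie at the pseudoautosomal end of the X chromosome, and both had large but uneven differences. Erdr1 read 12.23, 11.53 and 11.82 in WT_male and 10.75, 10.90 and 10.90 in KO_male. Its difference was -1.01 (SE 0.23; limma adjusted p = 0.57), and a second set of probes for the gene gave -0.85. Mid1, a microtubule-associated ubiquitin ligase, read 10.49, 9.38 and 10.35 in WT_male and 8.82, 8.60 and 8.65 in KO_male, a difference of -1.38 (SE 0.48; limma adjusted p = 0.875) and of -1.55 in its second set of probes. All 3 knockout males were below all 3 control males in both genes. The female arrays spread over 8.60 to 10.59 in Mid1, and Erdr1 differed by 0.22 in females. The X chromosome as a whole did not stand out, since its 899 genes had a median difference of -0.0057 and 6.23% at an unadjusted p under 0.05. Over the autosomes the share ranged from 3.7% on chromosome 16 to 6.88% on chromosome 13, and none of 17 Y-linked genes reached that level.

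The male and female differences were weakly related across genes, with a Pearson correlation of 0.166 over 22180 genes and 0.274 over the 13116 genes brighter than the receptor level. Genes are not independent replicates, and both differences come from 1 platform and 1 deposited table, so these values are a description. No gene (0.0%) passed the test of the male effect against the female effect in limma, while 1070 genes (4.82%) had an unadjusted p under 0.05. Higher in the male than in the female effect, after Nnt, were Trank1 (0.04 in males, -0.81 in females), Tpbg (0.05 and -0.44), Opalin (-0.19 and -0.72) and Slc41a3 (0.52 and -0.66). Lower, after Rhoj, were the endoplasmic reticulum chaperone genes Hspa5 (-0.03 in males, 0.47 in females) and Sdf2l1 (0.01 and 0.85), then Utp14a (-0.13 and 0.31) and Apold1. Hspa5 read 8.33, 8.43 and 8.50 in WT_male and 8.35, 8.45 and 8.38 in KO_male, with full overlap. Of 23 genes of protein folding and stress in the endoplasmic reticulum, 1 had an unadjusted p under 0.05 in males (4.35%, against 5.41% of all genes). The median difference was 0.03 in males and 0.17 in females.

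**Figure D3:**
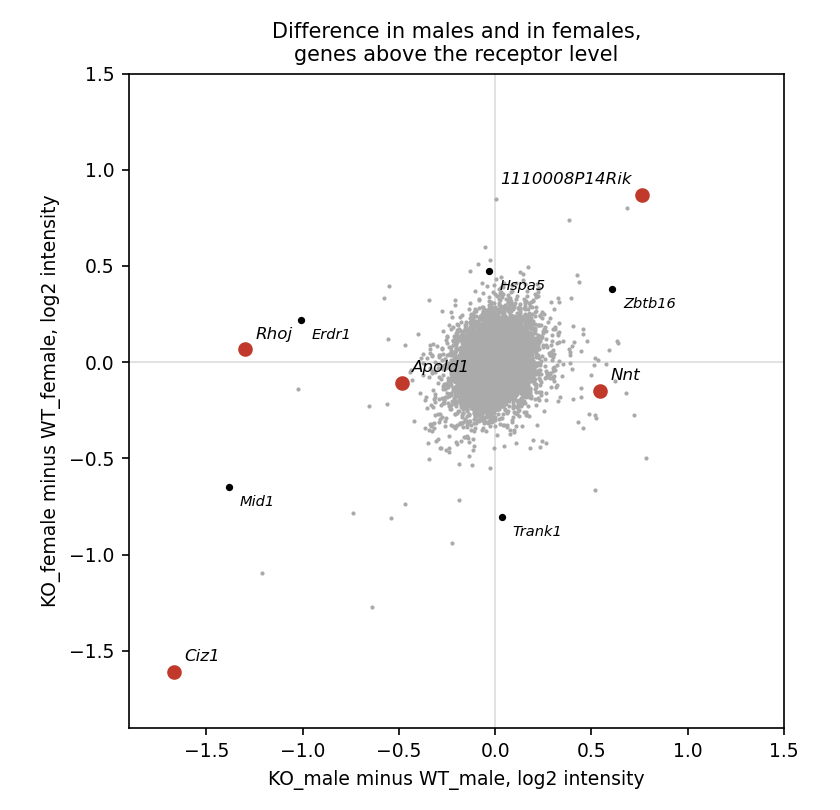
Difference between knockout and wild type on the log2 scale in males (x axis) and in females (y axis) for 13116 genes brighter than the receptor level, with the 5 genes called in males in red and Erdr1, Mid1, Zbtb16, Trank1 and Hspa5 in black. Ciz1 and 1110008P14Rik lie far from 0 on both axes, Rhoj and Nnt along the male axis, and Trank1 and Hspa5 along the female axis.

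Interferon response genes lay almost wholly on one side in males. Interferons act through JAK and STAT proteins to switch on antiviral genes such as the Ifit, Oas, Mx, Gbp and Irg families. Of 42 measured genes, 41 were higher and 1 lower in KO_male, against 48.1% of all genes higher, with a median difference of 0.20 against -0.0045 over all genes. None passed the adjusted threshold, and 9 genes (21.4%) had an unadjusted p under 0.05, all higher, against 2.62% of all genes higher at that level. The 3 KO_male arrays lay above the 3 WT_male arrays in 18 of the 42 genes, against 4.66% of all genes. The level was above the receptor level in 24 of the 42.

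Gbp9, a guanylate-binding protein gene, read 5.73, 5.71 and 5.70 in WT_male and 5.99, 6.04 and 6.12 in KO_male (0.34; limma adjusted p = 0.451). Slfn2, of the schlafen family, read 6.21, 6.19 and 6.19 in WT_male and 6.51, 6.95 and 6.78 in KO_male (0.55; adjusted p = 0.451). Ifit1, which binds viral RNA lacking a host cap, read 7.42, 7.03 and 7.26 in WT_male and 7.90, 8.16 and 7.70 in KO_male (0.68; SE 0.19; adjusted p = 0.786). In these 3 genes the groups did not overlap, and the knockout arrays differed from one another more than the controls did. Gbp9 and Slfn2 were dim, with averages of 5.80 and 6.45 over all arrays, below the receptor level of 6.47. Irgm1, a GTPase that acts on vacuoles holding microbes, read 4.98, 4.80 and 5.21 in WT_male and 5.48, 5.81 and 5.22 in KO_male (0.51), so its groups nearly touched. All of these values were below the receptor level. Oasl2 read 7.45, 7.34 and 7.39 in WT_male and 7.84, 8.59 and 7.92 in KO_male (0.72), with KO_male replicate 2 far above the other knockouts. The remaining genes of the 9, given as examples after their values were seen, were Igtp (0.40), Mx2 (0.32), Xaf1 (0.29) and Oas2 (0.26). Other classic members differed little, with Isg15 at 0.09, Stat2 and Mx1 at 0.04 each and Oasl1 near 0.

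The interferon list rested in part on 2 arrays. KO_male replicate 2 was the highest of the 6 male arrays in 29 of the 42 genes (69.0%), against 16.9% of all genes. The mean level of the list was 6.54, 6.44 and 6.48 in WT_male and 6.64, 6.86 and 6.66 in KO_male, so the genotypes did not overlap in males. Without KO_male replicate 2 the median was 0.14, with 36 of 42 higher and 4 genes at an unadjusted p under 0.05. WT_male replicate 2 was the lowest of the 6 in 19 genes (45.2%, against 14.3% of all genes), and without it the median was 0.17, with 39 higher and 5 genes at that level. Without WT_male replicate 3 it was 0.19, with 38 higher. The female arrays covered the same range, at 6.66, 6.77 and 6.53 in the controls and 6.79, 6.51 and 6.45 in the knockouts, with a median difference of -0.06. Of 17 genes of antigen presentation, many of which interferon also induces, 12 were higher, none had an unadjusted p under 0.05 and the median was 0.03. KO_male replicate 2 was the highest male array in 11 of the 17 (64.7%, against 16.9% of all genes). Without it 6 were higher and 11 lower, with a median of -0.055. Without WT_male replicate 2, 7 were higher and 10 lower, with a median of -0.018.

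The promoters of interferon genes carry a response element that STAT and IRF factors bind, and they are shown because nearly all genes of this list had differences above 0. RefSeq windows of 250 bases before the gene start were searched on both strands, in assembly GRCm38.p6, for the core GAAA, any 2 bases, GAAA, and overlapping matches were kept. It was present for 16 of the 29 list genes with a window (55.2%) and for 3.46% of all 27025 genes, or 2.98% of 32851 windows. The 16 genes with a match had a median difference of 0.17, and the 13 without one 0.20, so the presence of these letters did not sort the genes by size of difference. Capitals mark the matches, which read TTTC, any 2 bases, TTTC where the motif is on the other strand. Ifit1 (chr19:34640639-34640888, plus strand) holds a pair of separate matches starting 104 and 85 bases before the gene. In Irgm1 (chr11:48871421-48871670, minus strand) a pair overlaps, 30 and 24 bases before the start. Isg15 (chr4:156200819-156201068, minus strand) has 3 overlapping matches and a difference of 0.09. A match is a description of the letters and not a site.
Ifit1: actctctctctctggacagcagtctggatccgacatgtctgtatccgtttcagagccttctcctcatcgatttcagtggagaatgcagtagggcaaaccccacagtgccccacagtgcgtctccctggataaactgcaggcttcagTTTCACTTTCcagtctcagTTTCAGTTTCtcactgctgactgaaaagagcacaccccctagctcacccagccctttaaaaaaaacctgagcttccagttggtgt
Irgm1: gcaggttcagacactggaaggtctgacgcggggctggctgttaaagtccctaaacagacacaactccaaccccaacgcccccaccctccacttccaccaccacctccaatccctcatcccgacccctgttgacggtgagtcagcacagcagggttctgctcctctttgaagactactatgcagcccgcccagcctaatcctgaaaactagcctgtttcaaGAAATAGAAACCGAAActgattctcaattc
Isg15: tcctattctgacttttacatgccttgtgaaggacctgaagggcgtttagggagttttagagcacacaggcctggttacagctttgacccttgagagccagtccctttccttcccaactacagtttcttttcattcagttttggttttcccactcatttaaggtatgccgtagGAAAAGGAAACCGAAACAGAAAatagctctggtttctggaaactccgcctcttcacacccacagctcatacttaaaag

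Immediate early genes, the transcription factors and feedback regulators that neurons induce within minutes of activity, were mostly lower in KO_male. Of 40 genes, 33 were lower and 7 higher, against 51.9% of all genes lower, with a median of -0.11. None passed the adjusted threshold, while 9 were lower and 1 higher at an unadjusted p under 0.05 (25.0% together, against 5.41% of all genes). The 3 knockout arrays lay below the 3 controls in 11 of the 40, against 5.64% of all genes.

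Nr4a1, an orphan nuclear receptor, read 10.66, 10.58 and 10.12 in WT_male and 10.10, 9.81 and 9.47 in KO_male (-0.66; SE 0.20; limma adjusted p = 0.874). Sik1, a kinase induced by cyclic AMP, read 8.79, 8.78 and 8.90 in WT_male and 8.48, 8.55 and 8.14 in KO_male (-0.43; adjusted p = 0.735). Egr1, a zinc finger factor, was even within both groups, at 7.81, 7.76 and 7.80 in WT_male and 7.54, 7.53 and 7.54 in KO_male (-0.26; adjusted p = 0.874). None of these 3 overlapped between the genotypes. The others lower at that level were Ccn1 (-0.44), Csrnp1 (-0.30), Nr4a2 (-0.54), Dusp1 (-0.33), Egr4 (-0.20) and Fosb (-0.32). The higher gene was Dusp6, a phosphatase that shuts off ERK, at 8.39, 8.36 and 8.46 against 8.61, 8.70 and 8.53 (0.21). Other members, given as examples after their values were seen, were Fos (-0.35), Arc (-0.09) and Npas4 (-0.11), which did not reach that level.

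The mean level of the immediate early list was 8.11, 8.07 and 8.08 in WT_male and 8.01, 7.96 and 7.85 in KO_male, without overlap. KO_male replicate 3 was the lowest male array in 17 of the 40 genes (42.5%), against 18.1% of all genes. With 1 male array left out at a time the median stayed between -0.13 and -0.09, the latter without WT_male replicate 3. In females the median was -0.04, with 25 of the 40 lower and 15 higher, and their arrays spread over 7.88 to 8.12. At an unadjusted limma p under 0.05, 7 genes were lower in KO_female and 0 higher, against 3.97% of all genes lower. A one-sided count at that level was therefore present in both sexes. Of 33 list genes with a promoter window, 3 (Btg2, Maff and Dusp1) held the cyclic AMP response element TGACGTCA, or 9.09%, against 1.77% of all genes with a window. The window of Dusp1 (chr17:26508473-26508722, minus strand) is shown with the match in capitals, 143 bases before the start.
Dusp1: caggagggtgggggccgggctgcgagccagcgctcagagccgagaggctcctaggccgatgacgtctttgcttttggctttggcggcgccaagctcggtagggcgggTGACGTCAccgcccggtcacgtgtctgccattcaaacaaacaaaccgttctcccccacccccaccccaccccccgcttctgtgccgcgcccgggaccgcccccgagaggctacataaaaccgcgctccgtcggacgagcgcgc

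**Figure D4:**
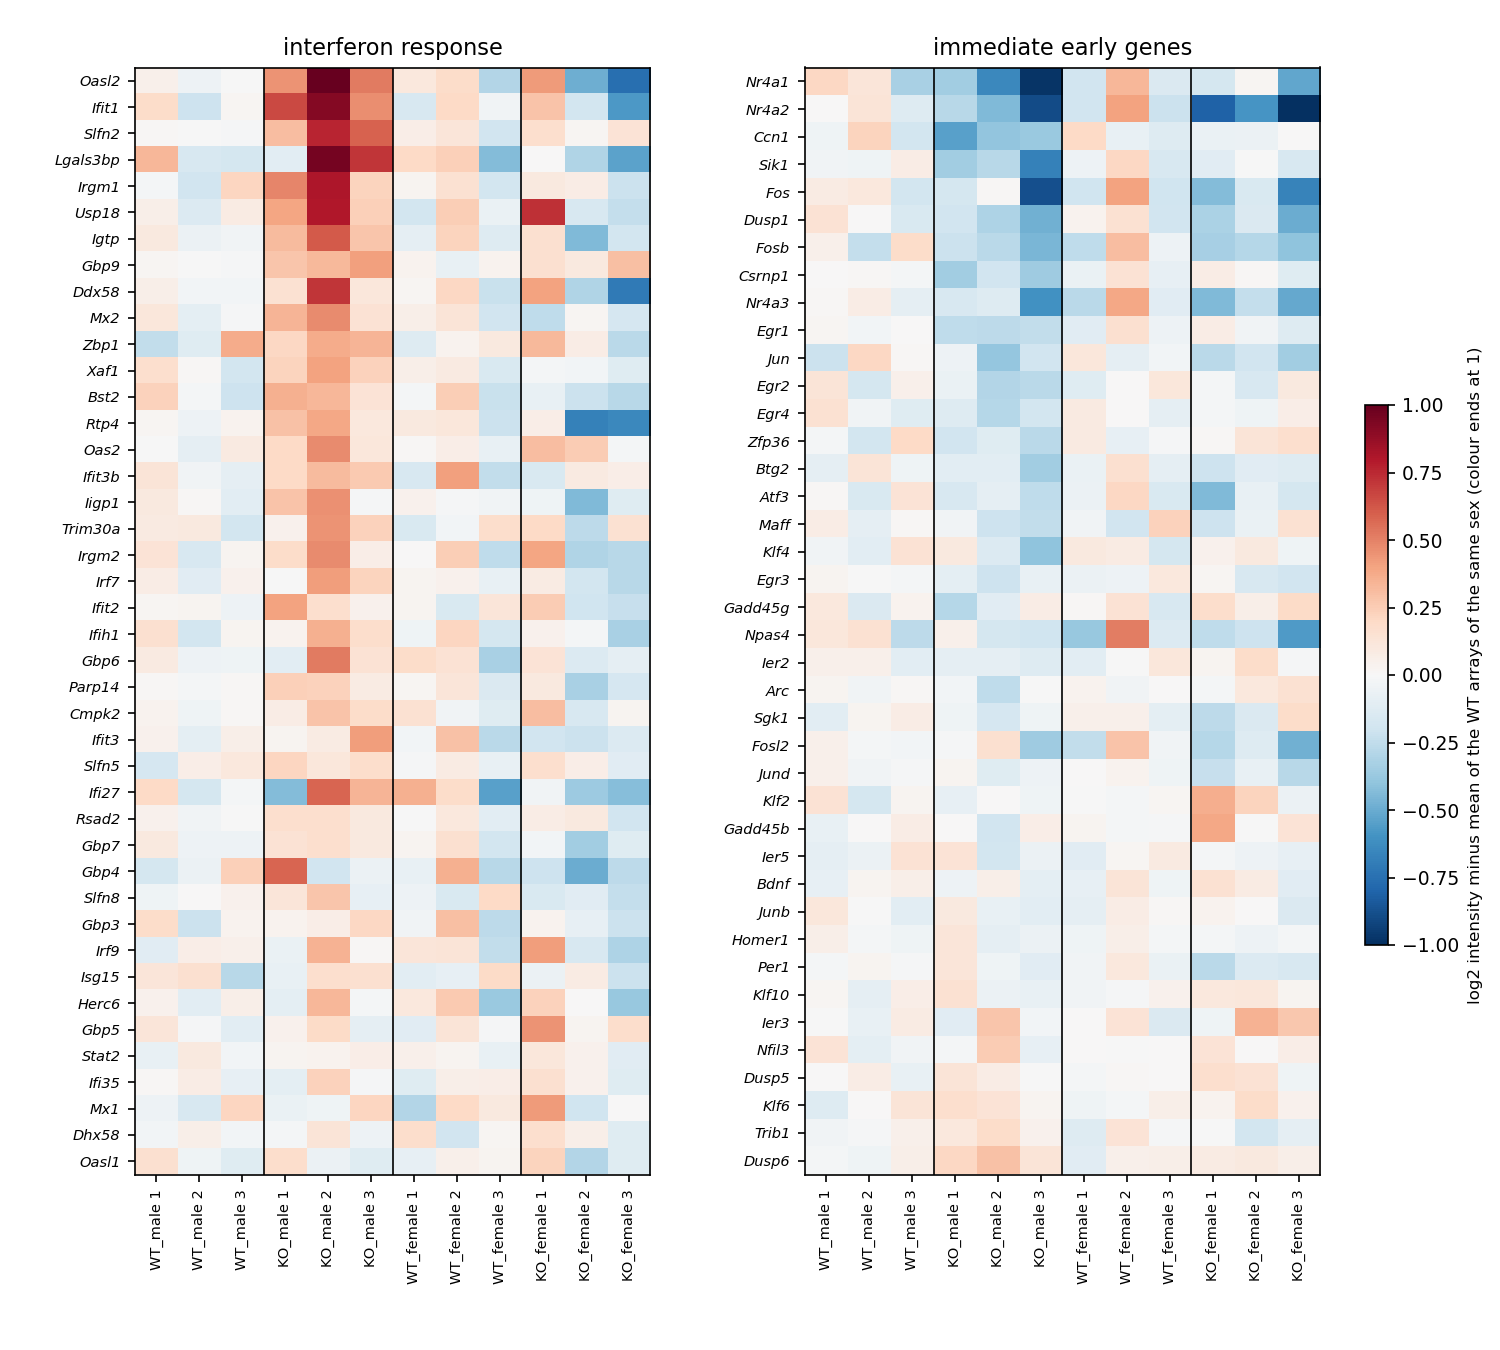
Log2 intensity minus the mean of the wild-type arrays of the same sex (colour, red higher and blue lower, with the scale ending at 1 in either direction) for 42 interferon response and 40 immediate early genes (rows) in 12 arrays (columns). KO_male replicate 2 is the reddest column among interferon genes and KO_male replicate 3 the bluest among immediate early genes, while the knockout female columns are mixed.

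Among glia, oligodendrocyte and microglia genes had medians on opposite sides of 0. In RNA from bulk tissue, fewer cells of a type and less RNA per cell cannot be told apart. Of 26 genes of oligodendrocytes and myelin, the insulating sheath of axons, 23 were lower and 3 higher in KO_male (median -0.14), against 51.9% of all genes lower. Of these, 3 had an unadjusted p under 0.05 (11.5%, against 5.41% of all genes). They were Car2, a carbonic anhydrase, at 10.55, 10.62 and 10.66 against 10.41, 10.20 and 10.41 (-0.27), Enpp6 (-0.26) and Nkx6-2 (-0.21), all lower. The list mean was 8.52, 8.66 and 8.70 in WT_male and 8.64, 8.30 and 8.51 in KO_male, so the genotypes overlapped. KO_male replicate 2, the array highest for interferon genes, was the lowest male array in 22 of the 26 genes, and the median without it was -0.04. The count of 3 genes at an unadjusted p under 0.05 became 13 without KO_male replicate 1 (median -0.24), 9 without WT_male replicate 1 (median -0.19), 6 without KO_male replicate 3 (median -0.16) and 2 without KO_male replicate 2 or WT_male replicate 2. With a covariate for choroid plexus genes it was 12 (median -0.19). In females all 26 genes were lower (against 49.4% of all genes), with a median of -0.24.

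Microglia, the resident macrophages of the brain, had 18 of 23 genes higher in KO_male (median 0.09) and 4 at an unadjusted p under 0.05, all higher (17.4%, against 2.62% of all genes). Cx3cr1, the fractalkine receptor, read 8.15, 8.17 and 8.15 in WT_male and 8.36, 8.41 and 8.21 in KO_male (0.17). Cd68, a lysosomal protein, read 7.97, 7.98 and 7.95 in WT_male and 8.12, 8.29 and 8.13 in KO_male (0.21). Both separated the genotypes in males, and Fcrls (0.23) and the complement gene C1qb (0.30) were the other pair. Fcrls averaged 6.22 over all arrays, below the receptor level of 6.47. In Cx3cr1 and Cd68 the WT_male arrays also lay below every female array. In females Cx3cr1 was lower in the knockouts without overlap (-0.11), and Cd68 was higher (0.34). The list median in females was 0.03, with 15 genes higher and 8 lower. KO_male replicate 2 was again the highest array in 13 of the 23, and without it the median was 0.06, with 1 gene higher and 1 lower at an unadjusted p under 0.05. Without KO_male replicate 3 or WT_male replicate 1, 2 genes reached that level, both higher, and without KO_male replicate 1 the median was 0.15. The part of microglial RNA in the interferon result was not tested.

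Of 25 genes of Bergmann glia and astrocytes, 13 were lower (median -0.03), and 4 had an unadjusted p under 0.05, all lower (16.0%, against 2.8% of all genes): Vim, Fabp7, Aqp4 (-0.25) and Gfap (-0.23). KO_male replicate 2 was the highest male array in 11 of the 25, and without it 23 were lower, with a median of -0.09. Without KO_male replicate 3 the median was 0.01, with 12 lower. Fabp7, a fatty acid binding protein of radial and Bergmann glia, read 10.70, 10.66 and 10.52 in WT_male and 10.17, 10.11 and 10.41 in KO_male (-0.40), without overlap. Choroid plexus genes, which come from the secretory epithelium of the ventricle attached to the cerebellum, followed single arrays. Their mean level was 7.72, 6.73 and 6.74 in WT_male and 6.51, 7.15 and 6.58 in KO_male, with 21 of 22 genes lower (median -0.27) and none at an unadjusted p under 0.05. Without WT_male replicate 1 that median was 0.02. Ttr, the thyroid hormone carrier of this epithelium, ranged from 9.40 to 13.33 in the 6 male arrays.

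Rhoj and Apold1 were the 2 genes called from a list of 29 endothelial genes, against 0.0225% of all genes called. The list was chosen with earlier results of these data known, so this count is a description and no measure of enrichment. None of 6 defining genes of that cell type passed. Cldn5, the tight junction claudin of brain vessels, read 7.63, 7.76 and 7.60 in WT_male and 7.63, 7.59 and 7.73 in KO_male. Pecam1, Kdr and Flt1 lay between -0.01 and 0, Cdh5 at 0.12 and Tek at -0.09. Over the list 17 genes were higher and 12 lower, with a median of 0.03. Sox18, an endothelial transcription factor, was the only other member at an unadjusted p under 0.05, at 6.34, 6.42 and 6.33 against 6.75, 6.59 and 6.50 (0.25). Of 15 genes of pericytes and smooth muscle, 1 (6.67%, against 5.41% of all genes) reached that level (Notch3, -0.18).

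**Figure D5:**
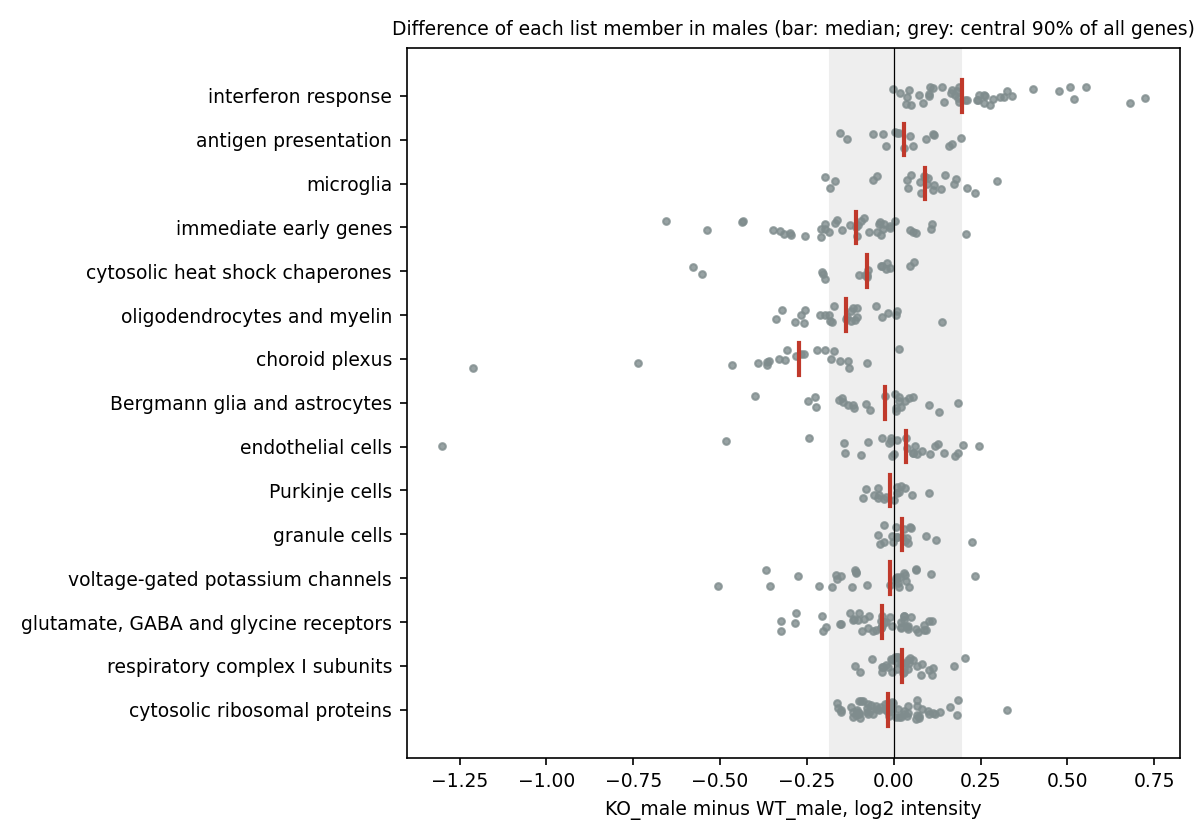
Difference KO_male minus WT_male on the log2 scale (x axis) for each member of 15 gene lists (points, with a bar at the list median), over a grey band that holds the central 90% of all genes, from -0.185 to 0.194. Interferon response members sit mostly to the right, immediate early, oligodendrocyte and choroid plexus members mostly to the left, and Rhoj and Apold1 lie far left of the other endothelial genes.

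Neuronal lists had medians near 0 with all 6 male arrays. The median was -0.01 over 16 Purkinje cell genes, 0.02 over 19 granule cell genes and -0.02 over 13 inhibitory interneuron genes, and 1 of the interneuron genes and none of the others had an unadjusted p under 0.05. For Purkinje cells this centre rested on KO_male replicate 2, the highest male array in 12 of the 16 genes (75.0%): without it 15 were lower and the median was -0.08. For granule cells, where it was the lowest in 9 of the 19, 18 were higher without it and the median was 0.06. Without WT_male replicate 2 the interneuron median was -0.07. Of 29 voltage-gated potassium channel genes, 14 were higher and 15 lower (median -0.01), but the 5 at an unadjusted p under 0.05 (17.2%, against 5.41% of all genes) were all lower, against 2.8% of all genes lower at that level. That count was 3 without WT_male replicate 3 and 8, of which 2 higher, without WT_male replicate 1. Kcnh5, of the ether-a-go-go family, read 6.37, 6.18 and 6.37 in WT_male and 6.08, 5.96 and 5.78 in KO_male (-0.37). It averaged 6.1 over all arrays, below the receptor level of 6.47, and 21 of the 29 channel genes were above that level. Kcnd1, of the A-type channels, read 7.57, 7.58 and 7.53 against 7.41, 7.32 and 7.13 (-0.28). Both were lower in every knockout male than in every control male, and the others were Kcna3 (-0.36), Kcnc4 (-0.22) and Kcnab2 (-0.16). Of 46 glutamate, GABA and glycine receptor genes, 29 were lower (median -0.04), against 51.9% of all genes. An unadjusted p under 0.05 was reached by 5 (10.9%, against 5.41% of all genes), all lower, against 2.8% of all genes lower at that level. They were Gabra5, Grin3a (-0.28), Grm5 (-0.28), Gabrg1 (-0.21) and the glycine receptor gene Glra1 (-0.33). Without KO_male replicate 3 or WT_male replicate 3, 2 receptor genes reached that level, and without WT_male replicate 2, 3 did. None of the channel or receptor genes passed the adjusted threshold.

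Genes tied to the known roles of Ciz1 showed little. Of 42 genes of G1/S control and DNA replication, 24 were higher and 18 lower (median 0.02). Of them 1 (2.38%, against 5.41% of all genes) had an unadjusted p under 0.05 (Mcm5, a subunit of the replicative helicase, 0.17). Of 21 Xist partners and X-inactivation factors, none reached that level, at a median of -0.03. Of 20 p53 targets, 2 did (10.0%, against 5.41% of all genes), including Mdm2, at a median of -0.03. Ciz1 is itself on a list of 19 inherited dystonia genes, in which no other member passed the adjusted threshold. At an unadjusted p under 0.05 were also Gch1, the first enzyme of tetrahydrobiopterin synthesis (-0.24), and Prrt2, a presynaptic protein (0.13). With Ciz1 itself, 3 of the 19 (15.8%, against 5.41% of all genes) reached that level. Tor1a (0.01), Thap1 (0.04) and Gnal (-0.09) did not. Gch1 averaged 5.66 over all arrays, below the receptor level of 6.47. Of 20 inherited ataxia genes none had an unadjusted p under 0.05 (median -0.03).

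Stress and metabolic genes were mixed. Of 17 cytosolic heat shock genes, 15 were lower (median -0.08), against 51.9% of all genes. Their mean level was 8.775, 8.958 and 9.015 in WT_male and 8.801, 8.837 and 8.727 in KO_male, so the genotypes overlapped. WT_male replicate 3 was the highest male array in 10 of the 17 (58.8%, against 18.5% of all genes). KO_male replicate 3 was the lowest in 8 (47.1%, against 18.1% of all genes). With 1 male array left out at a time the median ran from -0.14 to -0.02. In females 13 were higher and 4 lower. Hspa1a, the inducible Hsp70, read 8.06, 8.86 and 8.98 in WT_male and 8.02, 8.14 and 8.01 in KO_male, with the first control within the range of the knockouts. Of 19 glucocorticoid-responsive genes, 13 were higher (median 0.10), against 48.1% of all genes. Zbtb16, Hif3a (0.33) and Lcn2 (0.64) were higher and Errfi1 (-0.19) lower at an unadjusted p under 0.05 (21.1% together, against 5.41% of all genes). With 1 male array left out at a time, 1 to 4 genes of this list reached that level. KO_male replicate 2 was the highest male array in 7 of the 19 (36.8%, against 16.9% of all genes), and without it the median was 0.02. The list means overlapped, at 8.12, 8.11 and 8.24 in WT_male and 8.21, 8.36 and 8.27 in KO_male. Among 25 mitochondrial redox genes Nnt was the only one called. Me1, a cytosolic enzyme that also makes NADPH, read 8.29, 8.23 and 8.39 in WT_male and 8.02, 8.18 and 7.96 in KO_male (-0.25), and Glud1 differed by -0.18. The 34 complex I subunits (median 0.02), 64 ribosomal proteins (-0.02), 36 sodium and calcium channel genes (0.01) and 17 clock genes (-0.003) were near the centre of all genes.

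Genes beside the called ones were compared as well, taking 5 tested genes on each side in the order of assembly GRCm38.p6. Beside Ciz1, 8 of 10 were higher and 2 lower, against 48.1% of all genes higher. After 1110008P14Rik, the largest difference was that of Lcn2, an iron-carrier binding protein of inflamed tissue, at 6.25, 6.11 and 6.66 in WT_male and 6.39, 7.42 and 7.11 in KO_male (0.64; limma adjusted p = 0.875), with overlap. Ptges2, a prostaglandin synthase, differed by 0.17, and Dnm1, the dynamin of synaptic vesicle recycling, by 0.07. Beside Rhoj on chromosome 12, 3 of 10 genes had an unadjusted p under 0.05, against 5.41% of all genes, and all were lower (2.8% of all genes): Kcnh5, Syt16 (-0.23) and Snapc1 (-0.17). Beside Nnt and beside Apold1 no gene of 10 reached that level. Kcnh5 averaged 6.1 over all arrays, below the receptor level of 6.47.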

How the data were processed

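Total RNA from mouse cerebellum was hybridised to 12 Affymetrix whole-transcript arrays, 1 for each animal. The authors deposited linear intensities, which the labels describe as RMA values of a core-exon analysis in Expression Console. The submitters' processing notes also list Transcriptome Analysis Console 3.0. Log2 of the deposited intensity was taken here, with no pseudocount and no further normalization. Array medians ran from 96.5 to 98.7.

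Of 41345 rows, 23521 carried 1 gene symbol in GEO's platform annotation, 1814 several and 16010 none. The brightest row was kept for 1082 genes with several rows, leaving 22180 genes, of which 21994 matched RefSeq by gene ID. Rows with several symbols or none were not used for named genes.

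A mean for each of the 4 groups was fitted to all 12 arrays with limma 3.58.1 in R 4.3.3 (lmFit, eBayes). Tests were two-sided, with Benjamini-Hochberg adjustment over 22180 genes and a threshold of 0.05. Every adjusted p is from limma. The number of arrays limits the precision, and the p-values measure the spread between these animals. The fit was tested on simulated data with 50 genes at each size of change, and it made 7 false calls.

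Named genes were Ciz1, every gene called in males, the next 10 in each direction by p that were brighter than the receptor level and not Riken or predicted symbols, and the 5 in each direction by p of the interaction. The 3 members of each list with the smallest p, 5 neighbours on each side of a called gene, Xist and the Y genes were added, and other list members are examples. The members and lists were chosen with earlier results of these data known. Lists are described by counts and medians, beside the same over all genes, with no test of a list. Alternatives were quantile normalization, an intensity trend, robust moderation, a brightness filter, the mean of a gene's rows, a choroid plexus covariate, the male arrays alone, each array left out and, added after seeing the data, all rows in 1 fit.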

Additional observations from a re-analysis of the deposited data

Results flagged for a closer look

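Rows of the array with no gene symbol in the annotation lay outside the comparisons above. When all 41345 rows were fitted together with limma, 4 of the 16010 rows with no symbol passed an adjusted p of 0.05 in males, all higher in KO_male, beside 4 of 23521 rows with 1 symbol and none of 1814 with several. They were singled out because their signal differed between the genotypes in data that the report does not use.

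Row 17549062 read 6.29, 6.21 and 6.36 in WT_male and 7.71, 7.67 and 7.83 in KO_male, a difference of 1.448 (adjusted p = 0.00216). The female knockouts, at 7.38 to 7.78, also lay above the female controls, at 6.03 to 6.33. Another row with the genotypes apart in both sexes differed by 1.989 (adjusted p = 0.00927).

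Row 17550580 read 4.04, 3.91 and 4.33 in WT_male and 5.38, 5.47 and 5.39 in KO_male, a difference of 1.323 (adjusted p = 0.00216). Both female groups lay between 5.14 and 5.63, so the WT_male arrays stood apart from the other 9. The last of the 4 had the same pattern and differed by 1.222 (adjusted p = 0.0404). Which transcripts these rows measure is not given in the sources used here.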

How the results depend on the processing

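No paired analysis was possible because the labels give no litter or pair for the animals. The 5 genes called in males kept their direction under every alternative run, while the choroid plexus median and some list medians near 0 changed sign. The count of 5 genes called in males became 2 with the 6 male arrays alone and 2 to 4 with 1 array left out; in the 7 other alternatives it was 4 or 5. The count of 5 in females became 16 among genes above the median brightness, 26 with an intensity trend and 3 to 7 with 1 array left out. The count of 0 for the male against the female effect became 2 among genes above the median brightness and 2 with an intensity trend (Nnt and Rhoj, at adjusted p down to 0.00355 and 0.0148), and 0 to 1 with 1 array left out, the 1 being Rhoj. The Ciz1 call in males held in every alternative, with adjusted p up to 0.00563. Nnt lost its male call with the male arrays alone (0.18), as did Apold1 (0.566), which also lost it with all rows in 1 fit (0.0901) and with the choroid plexus covariate (0.108). Groups of 3 arrays are too small for a check of single outlying arrays. Dim genes are measured least well: 24 of the 42 interferon genes were above the receptor level.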
